A study of Arabidopsis thaliana with 16 samples.

Results

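*MYB119* (AT5G58850), *MYB64* (AT5G11050), *MYB98* (AT4G18770), *MYB115* (AT5G40360), *MYB118* (AT3G27785) and *MYB22* (AT5G40430) encode *Arabidopsis* transcription factors of the R2R3-MYB family, and they were followed by their transcript level in seeds and by the PHE1 peaks near them. They are 6 of the 27206 genes in the expression table and 6 of the 125 genes there whose reference symbol or synonym is MYB and a number, taken here as the R2R3-MYB family. The choice used measured values. *MYB119* had been picked for a PHE1 binding region next to it, a level of 0 in wt seeds and a lower level in *phe1 phe2 osd1* than in *osd1* seeds, and the other 5 joined it as named relatives or as seed MYB factors. Levels, fold changes and peaks of the 6 genes are therefore a description and carry no p-value.

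Transcripts were measured in whole seeds at 6 days after pollination (DAP), in 2 libraries for each of 3 crosses. Every mother was the male-sterile *pi-1* mutant in the L*er* accession, and the pollen donors were Col wt, *osd1* and *phe1 phe2 osd1*. Loss of *OSD1* (allele *osd1-3*) gives unreduced pollen, so the wt cross gave diploid seeds, and the crosses with *osd1* and *phe1 phe2 osd1* gave triploid seeds with an extra paternal genome. The *phe2* allele is a T-DNA insertion and *phe1* a small CRISPR deletion that ends the reading frame early, so transcripts of both genes can still be counted, and the mother kept both genes intact in every cross. PHE1 binding was measured in 2 replicates by ChIP-seq with a GFP antibody, in Col siliques that carry *PHE1::PHE1-GFP*, at 2 DAP. A whole seed mixes embryo, endosperm and seed coat, so fewer cells of a type and less RNA per cell cannot be told apart.

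R2R3-MYB proteins bind DNA through a pair of imperfect repeats, R2 and R3, each folded around evenly spaced tryptophans. In the ovule, MYB98 acts in the synergids, the cells beside the egg cell that attract the pollen tube, and MYB64 and MYB119 act redundantly when the female gametophyte forms its cells, downstream of the histidine kinase CKI1. In the seed, MYB118 is expressed in the endosperm, where it holds back maturation genes, and with MYB115 it activates acyl-ACP desaturases that make omega-7 fatty acids. Both have also been tied to glucosinolate synthesis. No role of MYB22 is given here. PHE1 and PHE2 are type I MADS-box factors of the endosperm, and *PHE1* is expressed from the paternal allele.

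The 6 proteins did not form a single closed group by sequence. Translated from the reference, they held 256 (MYB22) to 437 (MYB118) residues, in 3 coding exons each except for 4 in *MYB118*. Within the R2R3 domain, MYB119 and MYB64 were identical at 82 of 91 residues (90.1%), and MYB119 and MYB98 at 75.8%. MYB118 shared 72.5% of its domain with MYB98 and 70.3% with MYB115. MYB22 was the most distant, at 51.1 to 65.6% to the other 5. Among the 115 R2R3-MYB proteins in which a domain was found, the 4 closest to MYB119 were MYB64, MYB98, MYB118 and MYB115. The closest to MYB22 was MYB100, which is not among the 6, at 81.1%. *MYB100*, named after its domain values were seen, had RPKM between 0 and 0.321 in the 6 libraries.

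**Figure D1:**
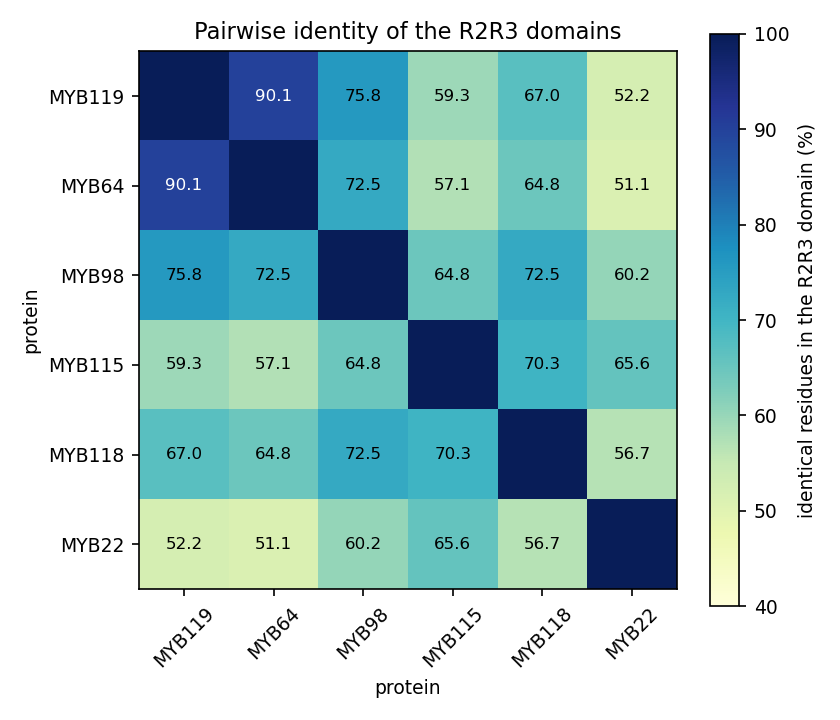
Each cell gives the percent of identical residues between the R2R3 domains of 2 of the 6 proteins, and darker cells are more alike. MYB119 and MYB64 stand out at 90.1%, and the row of MYB22 stays at or below 65.6%.

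The bases that code for the end of the R3 repeat, where the helix that reads the DNA lies, are shown because they let the 6 genes be compared letter by letter. Each stretch holds 60 bases of the coding strand (TAIR10.1, sequence from RefSeq) and ends with the codon of the last tryptophan of the domain. Capitals mark the 27 positions at which all 6 genes have the same base.
MYB119: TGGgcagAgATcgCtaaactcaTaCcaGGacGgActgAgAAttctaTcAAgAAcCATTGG
MYB64: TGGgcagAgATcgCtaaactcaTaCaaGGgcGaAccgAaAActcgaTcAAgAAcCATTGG
MYB98: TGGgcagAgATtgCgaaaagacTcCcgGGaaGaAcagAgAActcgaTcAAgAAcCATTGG
MYB118: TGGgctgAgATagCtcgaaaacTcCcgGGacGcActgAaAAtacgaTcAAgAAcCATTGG
MYB115: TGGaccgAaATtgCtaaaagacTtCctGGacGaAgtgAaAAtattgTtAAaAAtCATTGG
MYB22: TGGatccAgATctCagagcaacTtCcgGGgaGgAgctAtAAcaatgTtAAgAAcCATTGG
The stretches lie at chr5:23764683-23764742 (*MYB119*, plus strand), chr5:3502898-3502957 (*MYB64*, plus), chr4:10312144-10312203 (*MYB98*, plus), chr3:10289235-10289294 (*MYB118*, minus), chr5:16146193-16146252 (*MYB115*, plus) and chr5:16176760-16176819 (*MYB22*, minus). *MYB119* and *MYB64* shared 53 of the 60 bases, whereas *MYB22* shared 36 to 39 with the other genes.

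The region bound by PHE1 next to *MYB119* is shown because it was the only region found in both ChIP replicates within the target window of any of the 6 genes. Capitals mark its CArG-box matches, the binding motif of MADS-box factors, searched on both strands as the SRF, MEF2 and intermediate types.
MYB119: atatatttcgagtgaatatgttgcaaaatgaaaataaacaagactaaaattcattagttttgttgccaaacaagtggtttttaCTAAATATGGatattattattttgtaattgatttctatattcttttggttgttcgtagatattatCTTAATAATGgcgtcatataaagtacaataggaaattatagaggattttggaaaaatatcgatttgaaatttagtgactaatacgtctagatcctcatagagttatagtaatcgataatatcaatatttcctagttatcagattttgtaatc
These are 300 bases of the plus strand at chr5:23763374-23763673, upstream of the gene. The first match, at bases 84 to 93, was of the intermediate type, and the second, at bases 149 to 158, of the MEF2 type. The stretch was placed to hold both matches. In 300-base windows around the centres of all 2510 shared regions, 27.6% held the intermediate type and 38.0% the MEF2 type, against 15.4% and 29.4% of the 300 bases upstream of 27443 protein-coding genes. The window of that kind around the centre of the *MYB119* region, chr5:23763505-23763804, held the MEF2-type match and not the intermediate one. The SRF type, held by 9.68% of shared regions and 2.92% of upstream windows, had no match in the *MYB119* region.

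Of the 6 genes, *MYB119* alone had a shared PHE1 region between 1500 bp upstream and 500 bp downstream of its start. Among the other 119 R2R3-MYB genes 11 did (9.24%), and among all 37899 annotated genes 4.79%. The 37899 also include genes that code for no protein, so the 2 shares have unlike bases. With protein-coding starts only, 1710 genes had a shared region, 11 of them other R2R3-MYB genes, beside the 27443 protein-coding genes with an upstream window. Replicate 1 had a peak of 592 bp at chr5:23763374-23763965 that ran across the annotated start of *MYB119* (chr5:23763945-23765556, plus strand). Replicate 2 had a peak of 826 bp at chr5:23763110-23763935, and a second one of 216 bp at chr5:23762657-23762872 that replicate 1 lacked. The shared stretch of 562 bp ended 10 bp before the gene. The annotated transcript of *MYB119* begins at its start codon, so its 5′ UTR is not annotated and the distance to the true start of transcription is unknown.

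The other 5 genes had no region shared by both replicates nearby. *MYB22* (chr5:16176427-16177731, minus strand) also has no annotated 5′ UTR, its exons and its coding sequence both being 771 bp long. A peak of 331 bp was centred 735 bp upstream of its annotated start, in replicate 2 only. It is shown here, 300 bases of the minus strand at chr5:16178316-16178615, because it is the only peak in the target window of a gene other than *MYB119*, and it held no CArG-box match of the 3 types.
MYB22: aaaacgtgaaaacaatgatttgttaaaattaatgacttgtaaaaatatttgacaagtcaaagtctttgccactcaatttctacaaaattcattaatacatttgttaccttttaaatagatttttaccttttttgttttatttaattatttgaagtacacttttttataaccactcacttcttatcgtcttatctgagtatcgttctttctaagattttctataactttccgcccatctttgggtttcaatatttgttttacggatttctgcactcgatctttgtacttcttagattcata
*MYB118* (chr3:10288603-10290934, minus strand) had a peak of 254 bp in replicate 2 beyond the 3′ end of the gene, and the start nearest to that peak was that of AT3G27770. For *MYB64* (chr5:3502092-3503834), *MYB98* (chr4:10311030-10313104) and *MYB115* (chr5:16144792-16146671), all on the plus strand, the nearest peaks of either replicate were centred 12857.5, 17990.5 and 16264.0 bp from the start. The lists give the start and end of a peak and no read depth, so binding below the threshold of the peak caller cannot be told from its absence.

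**Figure D2:**
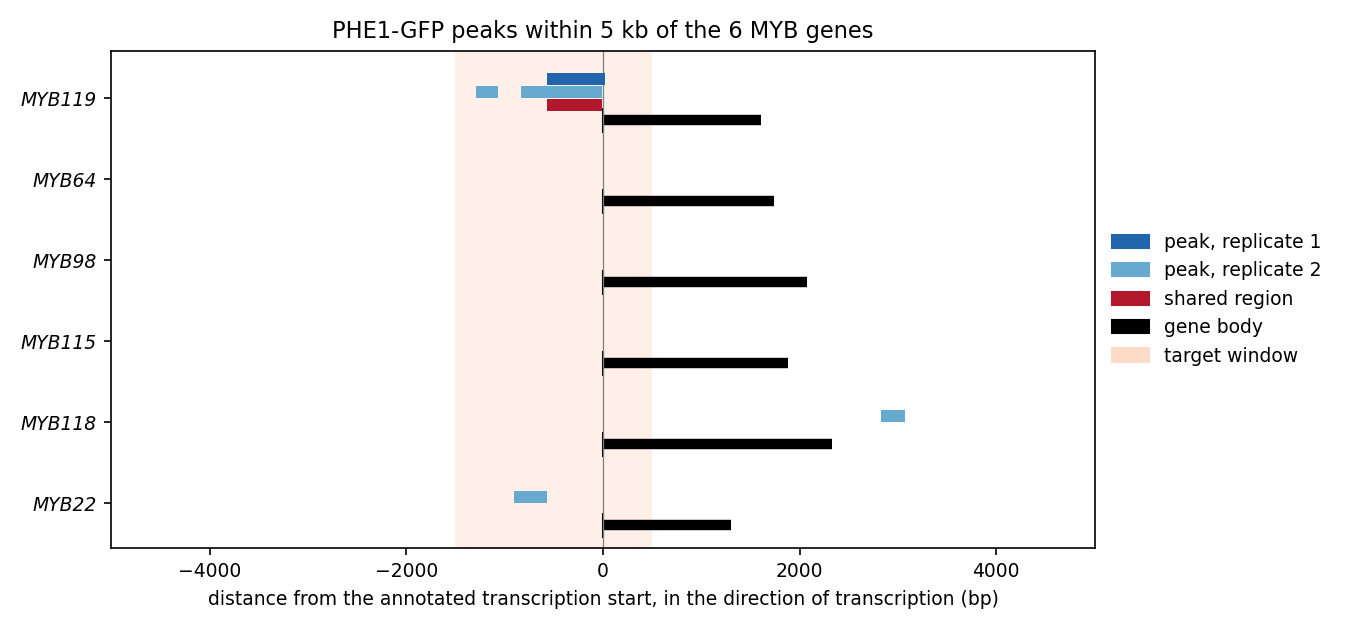
Peaks of each replicate and the regions they share are drawn by their distance in bp from the annotated start of each gene, with the gene body in black and the target window shaded. Only *MYB119* has a shared region, which ends 10 bp before its start.

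Before the levels, 3 facts on the libraries bear on them. Their estimated depth was 16.25 to 18.20 M reads, which puts 3 reads of *MYB119* at 0.117 to 0.131 RPKM. The wt libraries were more alike (Pearson r of 0.989 across genes) than those of *osd1* (0.961) or *phe1 phe2 osd1* (0.974), and *osd1* replicate 1 stood farthest from wt (0.814 and 0.828). *MUM4*, a mucilage gene of the seed coat, shows this gap, with RPKM of 57.0 and 341 in the *osd1* libraries and 701 and 581 in wt. *PHE1* stood at 2.92 and 3.10 RPKM in the wt libraries, 200.4 and 169 in *osd1* and 49.0 and 49.1 with *phe1 phe2 osd1* pollen, with *PHE2*, a near-identical copy that can share its reads, at 3.08 and 2.98, 81.8 and 90.1, and 37.8 and 32.5.

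*MYB119* was listed at 0 in both wt libraries. Its RPKM was 5.19 and 1.89 in *osd1* and 1.66 and 0.254 with *phe1 phe2 osd1* pollen. At the estimated depth, these values stand for about 128 and 46 reads in *osd1*, and 40 and 7 with *phe1 phe2 osd1* pollen. Every triploid library was above wt, and both *phe1 phe2 osd1* libraries were below both *osd1* libraries, although *osd1* replicate 2 and *phe1 phe2 osd1* replicate 1 lay close together. The mean was 3.54 ± 2.33 (SD, n = 2) in *osd1* and 0.956 ± 0.993 (SD, n = 2) in *phe1 phe2 osd1*, a ratio of 3.70.

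On the scale of log2(RPKM + 0.5), which understates changes of low genes, *MYB119* stood 2.88 ± 0.61 (SE) higher in *osd1* than in wt and 1.53 lower in *phe1 phe2 osd1* than in *osd1*. The latter difference was -0.91 without *osd1* replicate 1, -2.16 without *osd1* replicate 2, -2.29 without *phe1 phe2 osd1* replicate 1 and -0.77 without *phe1 phe2 osd1* replicate 2, so its size moved with each library, while its direction was set by the way *MYB119* was picked. Of the 20051 tested genes, 0.0948% had a lower value in that comparison, a place that the way *MYB119* was picked had fixed in advance.

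The genes just upstream of *MYB119* were also higher in triploid seeds. AT5G58840, annotated as a subtilase, a secreted protease, ends 1506 bp before *MYB119* on the same strand. Its RPKM was 0.374 and 0.419 in wt, 51.0 and 14.7 with *osd1*, and 18.3 and 74.8 with *phe1 phe2 osd1* pollen (log2 change of 4.97 ± 0.77 (SE) in *osd1* vs. wt, limma adjusted p = 0.00628). AT5G58830, the next subtilase gene, had 0.919 and 0.823 in wt, 57.9 and 24.5 with *osd1*, and 35.4 and 35.6 with *phe1 phe2 osd1* pollen (4.802 ± 0.37, limma adjusted p = 0.000639). AT5G58820, the farthest of this run, did not pass the test (3.03 ± 1.20, limma adjusted p = 0.116), with its highest RPKM of 22.9 in *phe1 phe2 osd1* replicate 2. That library held the highest level of AT5G58840 and the lowest triploid level of *MYB119*, so the neighbours did not follow *MYB119* from library to library. AT5G58820 and AT5G58830 had shared PHE1 regions in their target windows and AT5G58840 had none. As tandem copies, the 3 may exchange reads. AT5G58820 and AT5G58840 passed the filter on low values, a mean of 0.5 RPKM in at least 1 cross, only through the triploid crosses.

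*CYP86A1*, a fatty acid hydroxylase gene that lies 234 bp beyond *MYB119* on the other strand, was at or below 0.0651 RPKM in all 6 libraries. The rise of RPKM at this locus therefore covered *MYB119* and the genes on its upstream side, and not the next gene downstream.

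*MYB64* and *MYB98* were at the edge of detection. *MYB64*, the closest relative of *MYB119*, was listed at 0 in both wt libraries, had 0.0747 and 0.153 RPKM in *osd1*, and 0.0380 and 0 with *phe1 phe2 osd1* pollen, or at most about 4 reads in a library. *MYB98* had 0.0656 and 0 in wt, 0.395 and 0.280 with *osd1*, and 0.310 and 0.117 with *phe1 phe2 osd1* pollen, or at most about 13 reads. Both were below the filter of a mean of 0.5 RPKM in at least 1 cross, so no fold change is given. In each gene both *osd1* libraries exceeded both wt libraries, but the counts behind them were too few to size a difference. The last 481 bp of *MYB98* overlap *IRX1*, a cellulose synthase gene on the other strand, which had 0.792 and 0.958 RPKM in wt and 1.96 and 1.91 in *osd1*. No strand setting is given in the sources used here, so reads of the 2 genes cannot be told apart there.

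The pollen tube attractants and *CKI1*, which act with these factors in the ovule, were likewise low, whereas the phosphotransfer genes downstream of *CKI1* were not. The 4 *LURE1* genes, which encode the pollen tube attractants that MYB98 switches on, were at 0 in most libraries, with a highest RPKM of 0.594. *CKI1* was between 0.0334 and 0.348. Of the synergid and egg cell genes, 4 of 10 could be tested and 1 passed limma in *osd1* vs. wt, where 26.0% of all tested genes did. It was *EC1.3*, an egg cell secretion gene, with 0.973 and 0.599 RPKM in wt and 0 in all 4 triploid libraries (limma adjusted p = 0.0242 for *osd1* vs. wt). *EC1.3* passed the filter of 0.5 RPKM only through wt, where it was high, so nothing is read from its p-value. *EC1.2* had the same 0.973 RPKM in wt replicate 1 and 0 in every other library. Whether the 2 genes share reads was not tested. *EC1.4* of the same list was higher in *osd1* by its mean, with 1.28 and 0 RPKM in wt and 1.92 and 0.606 in *osd1*, but the 2 crosses overlapped. The rank product called it higher in *osd1* vs. wt, and it did not pass limma (adjusted p = 0.449). Of the CKI1 phosphorelay, 4 of 5 genes were tested and 2 passed, both lower in *osd1*. These were the phosphotransfer genes *AHP5*, with 20.5 and 16.7 RPKM in wt and 8.21 and 7.55 in *osd1* (-1.18 ± 0.16, limma adjusted p = 0.00348), and *AHP2*, with 40.1 and 35.7 in wt and 21.3 and 26.1 in *osd1* (-0.67 ± 0.14, limma adjusted p = 0.0190).

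**Figure D3:**
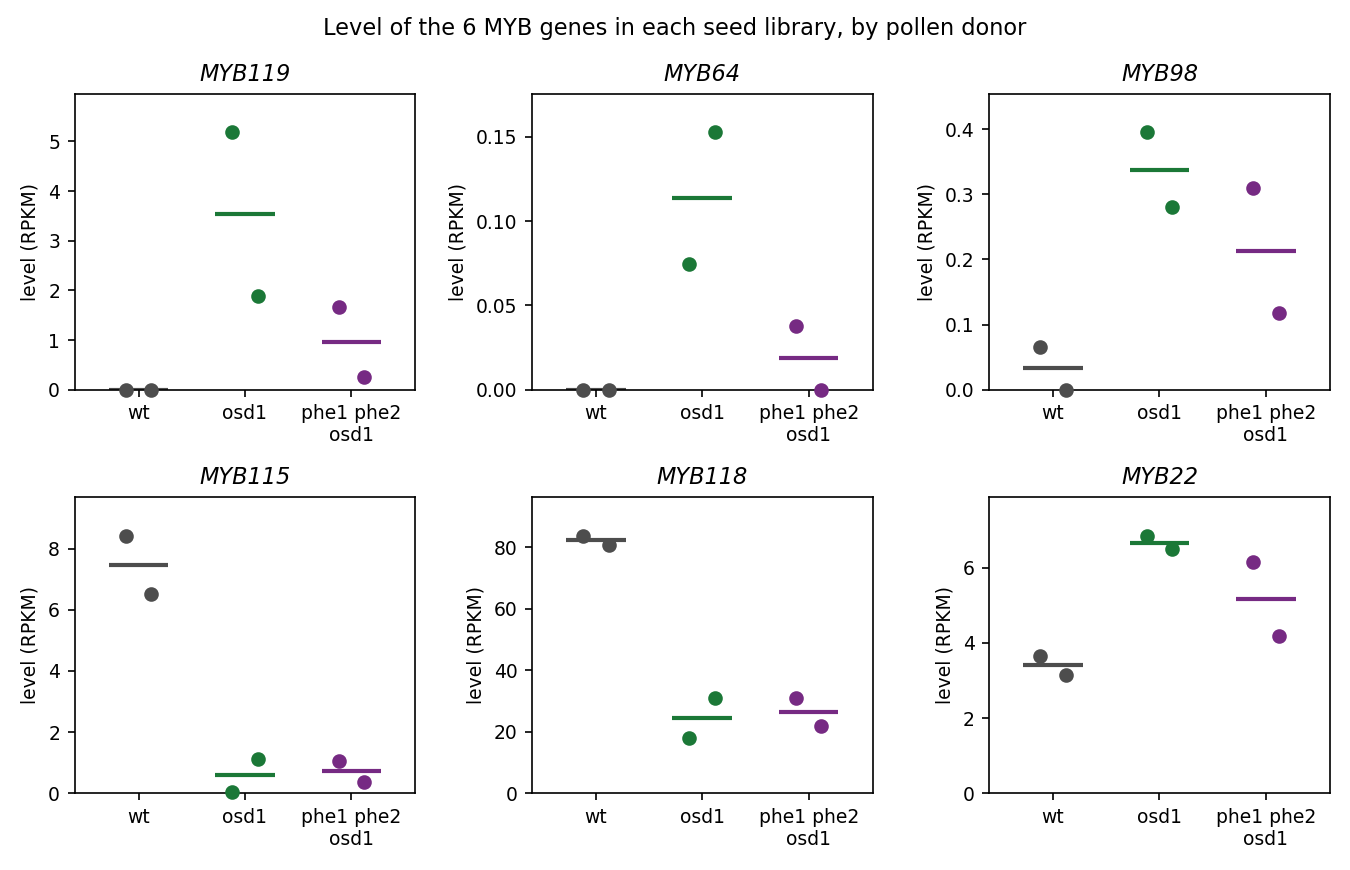
Each point is the RPKM of 1 gene in 1 seed library, grouped by pollen donor, and each bar is the mean of 2 libraries. *MYB119* is at 0 in wt and highest in *osd1*, *MYB115* and *MYB118* are highest in wt, and the axes of *MYB64* and *MYB98* end below 0.5 RPKM.

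*MYB118* was by far the most abundant of the 6 genes in every library, and it was lower in triploid seeds. Its RPKM was 83.8 and 80.7 in wt, 17.99 and 31.0 with *osd1*, and 31.1 and 21.96 with *phe1 phe2 osd1* pollen. The wt values did not overlap with those of either triploid cross, whereas the 2 triploid crosses overlapped. The mean was 82.2 ± 2.20 (SD, n = 2) in wt and 24.5 ± 9.20 (SD, n = 2) in *osd1*, 3.36-fold lower. Among the 125 R2R3-MYB genes, its rank by mean RPKM was 4 with wt pollen, 13 with *osd1* and 11 with *phe1 phe2 osd1* pollen.

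*MYB115*, its close relative, was lower by a larger factor. RPKM was 8.42 and 6.50 in wt, 0.0473 and 1.11 with *osd1*, and 1.06 and 0.365 with *phe1 phe2 osd1* pollen. All 4 triploid libraries were below both wt libraries, and *osd1* replicate 1 held about 1 read of it. The mean was 12.9-fold lower in *osd1* and 10.5-fold lower in *phe1 phe2 osd1* than in wt. Between the triploid crosses, *MYB115* and *MYB118* differed by 0.31 ± 0.56 and 0.14 ± 0.28 (SE) on the log2 scale, less than the spread between replicates.

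Across the 6 libraries *MYB118* and *MYB115* followed nearly the same order. Their log2 levels had a Pearson r of 0.998 (n = 6 libraries), which placed each among the 3 tested genes most like the other. Closest to *MYB118* were *SYP23*, a syntaxin gene (0.999), and *AtIPCS2*, a sphingolipid synthase gene (0.998), and closest to *MYB115* were *CRL1* and *DUR* (both 0.998). Such values are a description, since they rest mostly on the step between wt and triploid libraries. Of the tested genes, 993 had an r over 0.95 with *MYB118* and 801 with *MYB115*.

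The 300 bases upstream of both genes are shown because their levels moved together and neither has a PHE1 peak there. Capitals mark matches, on both strands, to the CArG-box types, to GTAACNT (a site bound by MYB98), to TAACGG (a site bound by MYB115 and MYB118) and to CATGCA (the RY element read by FUS3, ABI3 and LEC2).
MYB118: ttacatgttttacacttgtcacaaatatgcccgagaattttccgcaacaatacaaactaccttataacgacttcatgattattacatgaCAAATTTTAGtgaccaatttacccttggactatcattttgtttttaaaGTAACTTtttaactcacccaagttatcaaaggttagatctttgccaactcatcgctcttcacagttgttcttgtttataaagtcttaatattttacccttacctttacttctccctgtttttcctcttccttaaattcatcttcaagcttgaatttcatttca
MYB115: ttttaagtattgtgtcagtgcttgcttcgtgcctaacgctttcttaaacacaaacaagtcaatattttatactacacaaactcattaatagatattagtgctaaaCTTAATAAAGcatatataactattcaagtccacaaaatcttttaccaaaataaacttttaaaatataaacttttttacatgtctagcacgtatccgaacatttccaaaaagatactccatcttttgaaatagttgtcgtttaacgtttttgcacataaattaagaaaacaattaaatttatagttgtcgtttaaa
The stretches lie at chr3:10290935-10291234 on the minus strand and chr5:16144492-16144791 on the plus strand. Each held 1 MEF2-type CArG-box, a motif in 29.4% of upstream windows, at bases 90 to 99 in *MYB118* and 106 to 115 in *MYB115*. *MYB118* also held 1 GTAACNT, which 13.5% of upstream windows have. TAACGG (6.97% of windows) and CATGCA (10.3%) had no match in either.

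Most acyl-ACP desaturase genes, which include the known targets of MYB118 and MYB115, were lower in triploid seeds. Like the 6 genes, the gene lists of this report were chosen with earlier results of these data known. Their counts, medians and p-values are therefore a description and no test of a group. Of 7 genes tested, 6 passed limma in *osd1* vs. wt, all lower. Of all 20051 tested genes, 26.0% passed there in either direction, with 2680 lower. The same count of 6 passed as lower in *phe1 phe2 osd1* vs. wt, where 24.6% of all tested genes passed in either direction, with 2511 lower. The median log2 change of the list was -1.25, beside 0.01 over all genes tested. *AAD2* and *AAD3*, the omega-7 desaturases, fell from 18.9 and 13.3 to 1.65 and 1.09 RPKM (limma adjusted p = 0.000790) and from 24.4 and 17.6 to 0.413 and 0.761 (limma adjusted p = 0.000577) in *osd1*. *AAD6* fell from 76.7 and 30.9 to 1.46 and 1.12 (limma adjusted p = 0.000861), and *AAD5* 2.40-fold (limma adjusted p = 0.00237). *AAD4*, the gene that did not pass, had 1.57 and 1.32 RPKM in wt and 2.39 and 2.18 in *osd1* (0.52 ± 0.25, limma adjusted p = 0.171). None of the 7 genes had a TAACGG in the 300 bases upstream of its start. Several of these genes are tandem copies that may share reads.

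The regulators of seed maturation were lower too. Of 6 genes tested, 5 passed limma as lower in *osd1* vs. wt, where 26.0% of all tested genes passed in either direction. In *phe1 phe2 osd1* vs. wt 4 did, where 24.6% of all tested genes passed in either direction. The median log2 change of the 6 was -2.71 and -2.43. *L1L*, a LEC1-like factor, had 85.9 and 87.8 RPKM in wt and 1.49 and 2.99 in *osd1* (limma adjusted p = 0.00110). *FUS3*, a B3 factor of the maturation programme, had 38.4 and 35.2 in wt and 1.81 and 3.12 in *osd1* (limma adjusted p = 0.000407). *ABI3*, which mediates abscisic acid responses, fell 7.06-fold (limma adjusted p = 0.00136), and *WRI1*, an activator of oil synthesis, 6.21-fold (limma adjusted p = 0.00182). *LEC2*, which acts upstream of *MYB118*, was named after its values were seen because in *osd1* vs. wt it alone did not pass (11.6 and 10.7 in wt, 2.33 and 8.57 with *osd1*, limma adjusted p = 0.134). *LEC1*, also named afterwards, passed there (195 and 190 in wt, 47.2 and 110 with *osd1*, limma adjusted p = 0.0404). In *phe1 phe2 osd1* vs. wt neither *LEC1* nor *LEC2* passed (limma adjusted p = 0.0750 and 0.419).

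Of the glucosinolate genes, 7 of 11 in the table were tested. *AOP3*, which modifies the glucosinolate side chain, alone passed limma in *osd1* vs. wt, where 26.0% of all tested genes did. It fell from 10.13 and 9.95 RPKM in wt to 0.777 and 0.361 in *osd1* (limma adjusted p = 0.000824). The median log2 change of the 7 was 0.20.

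**Figure D4:**
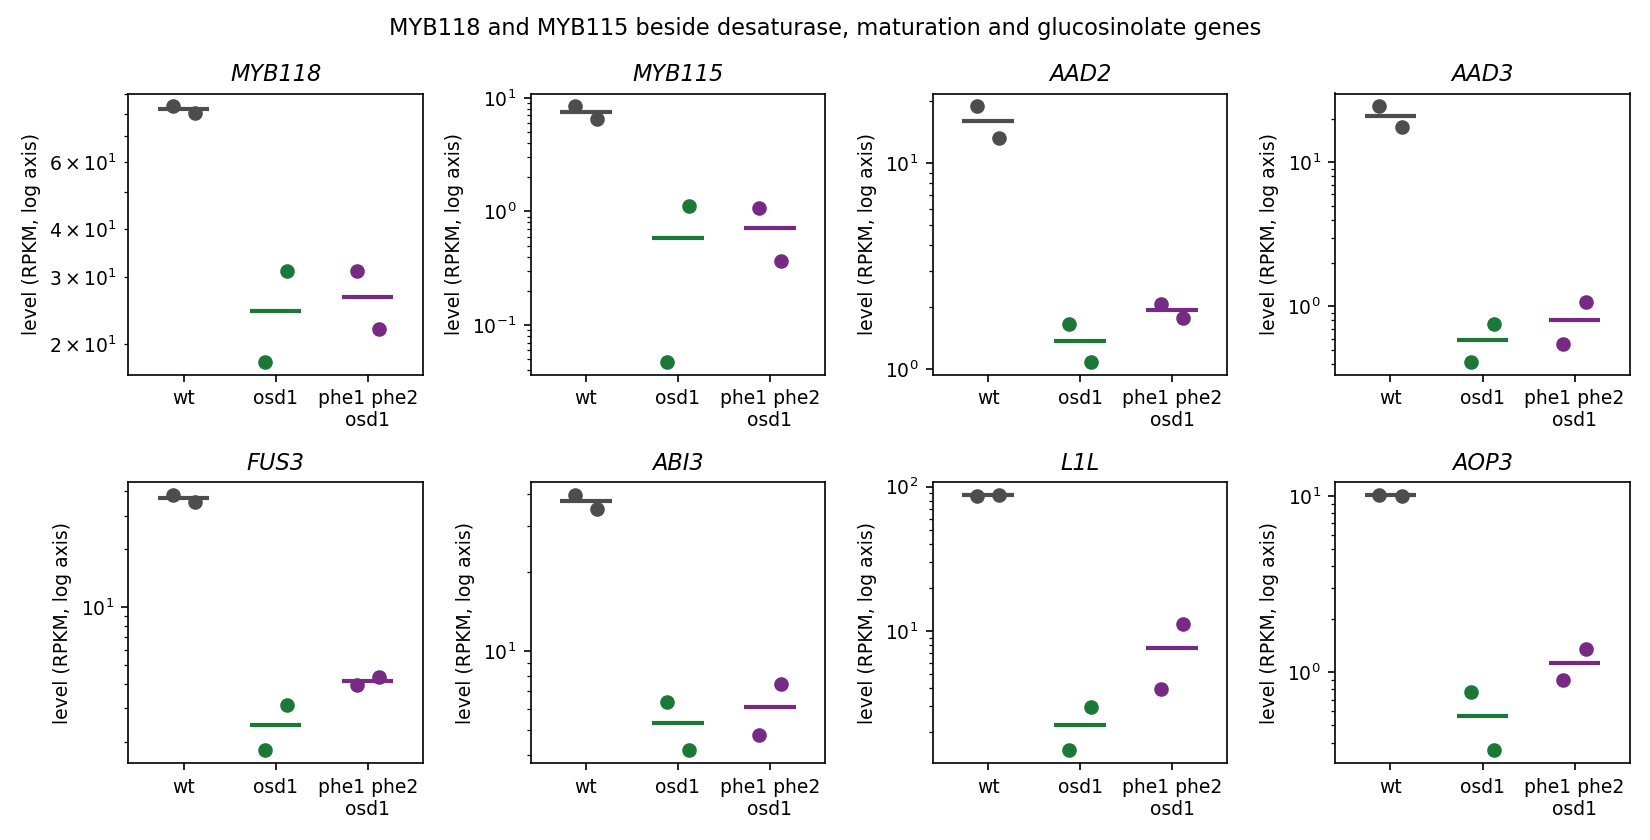
RPKM on log axes is drawn for *MYB118*, *MYB115*, 2 desaturase genes, 3 maturation regulators and *AOP3*, with 1 point per library and a bar at the mean of 2 libraries. In all 8 genes both wt libraries lie above the 4 triploid libraries. The genes beside *MYB118* and *MYB115* were taken from those that passed limma as lower, so their choice largely set this. *AAD4*, not drawn, was higher in *osd1* than in wt.

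*MYB22* was about 2 times as high in *osd1* as in wt seeds. Its RPKM was 3.66 and 3.16 in wt, 6.86 and 6.49 with *osd1*, and 6.16 and 4.19 with *phe1 phe2 osd1* pollen. Every triploid library exceeded wt, and both *phe1 phe2 osd1* libraries were below both *osd1* libraries. The mean was 1.96 times that of wt in *osd1* and 1.52 times in *phe1 phe2 osd1*, and the log2 difference between the triploid crosses, -0.36 ± 0.23 (SE), was within the spread of the *phe1 phe2 osd1* libraries. The order of its libraries resembled that of *MYB119* (r of 0.957, n = 6 libraries), although 142 tested genes were more like *MYB119*.

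Closest to *MYB22* in pattern were AT5G41630, *HDG11*, an epidermal homeodomain gene, and AT4G14350 (r of 0.997, 0.996 and 0.994, n = 6 libraries). Closest to *MYB119* were AT1G02405, AT2G33720 and *ARF14*, a gene of a cluster of near-identical auxin response factors (0.997, 0.996 and 0.995). AT1G02405 rose from 3.03 and 3.11 RPKM in wt to 29.4 and 12.5 in *osd1* and had 14.1 and 4.88 in *phe1 phe2 osd1*, so that it too was highest in *osd1* replicate 1 and, among triploid libraries, lowest in *phe1 phe2 osd1* replicate 2.

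*MYB115* and *MYB22* lie 29.755 kb apart on chromosome 5 and moved in opposite directions. Of the 8 protein-coding genes between them, 7 were tested and 1 passed limma in *osd1* vs. wt, where 26.0% of all tested genes did. It was *OLEO2*, an oil body gene next to *MYB22*, which fell from 74.0 and 69.0 RPKM to 4.37 and 10.5 (limma adjusted p = 0.00283).

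Markers of the seed compartments moved with the crosses as well. Of the central cell and endosperm genes, 5 of 10 were higher and 2 lower by limma in *osd1* vs. wt, where 26.0% of all tested genes passed in either direction, and their summed RPKM rose from 50.5 and 52.9 in wt to 97.2 and 74.8 in *osd1* and 79.1 and 83.3 with *phe1 phe2 osd1* pollen. *AGL62*, which holds off endosperm cellularization, rose from 0.108 and 0.1001 to 20.8 and 10.4 (limma adjusted p = 0.00136), *FWA*, a maternally expressed homeodomain gene, rose 24.3-fold (limma adjusted p = 0.000402), and *MINI3* and *AGL61* passed with log2 changes of 3.70 and 1.72 (limma adjusted p = 0.00871 and 0.0342). *AGL62*, *MINI3* and *AGL61* passed the filter on low values only through the triploid crosses. The 2 that fell were *EDE1*, a microtubule-binding protein gene of the endosperm (2.95-fold, limma adjusted p = 0.00510), and *ZOU*, a factor needed for endosperm breakdown (2.87-fold, limma adjusted p = 0.0330). Of the embryo genes, 6 of 7 were tested, with 1 higher and 2 lower, and the sum was 282 and 279 in wt, 183 and 174 with *osd1*, and 160 and 149 with *phe1 phe2 osd1* pollen. *PDF1* alone held 194 and 179 of this sum in wt and 89.4 and 78.3 in *osd1*. *WOX9* fell 6.96-fold (limma adjusted p = 0.000402) and *PDF1* 2.22-fold (limma adjusted p = 0.00134), whereas *ATML1* rose 1.43-fold (limma adjusted p = 0.0396) and *WOX8* passed only in *phe1 phe2 osd1* vs. wt (2.52-fold lower, limma adjusted p = 0.0314). Of the seed coat genes, 6 of 10 were higher and none lower by limma, with *TT12* (2.57), *TT1* (1.81), *STK* (1.77) and *TT2* (1.45) showing the largest log2 changes of those that passed (limma adjusted p from 0.000983 to 0.0109), while the summed RPKM, 1454 in both wt libraries, was 1031 and 1546 in *osd1* and 1102 and 1432 with *phe1 phe2 osd1* pollen. *MUM4* of the same list, at -2.19 ± 0.79 in *osd1* vs. wt, was called lower by the rank product and did not pass limma (adjusted p = 0.0913). *MUM4* alone held 701 and 581 of the seed coat sum in wt and 57.0 and 341 in *osd1*. The part of these shifts in the levels of the 6 MYB genes was not tested.

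As a count, 4 of the 6 genes passed the filter on low values, *MYB119* only through the triploid crosses. The 6 genes were chosen with earlier results of these data known. The calls, counts and medians below are therefore a description and no test of the group. By the rank product, a permutation test on ranks with an unadjusted threshold of 0.05, 1 of the 4 was called higher in *osd1* vs. wt (*MYB119*; 8.54% of all tested genes were) and 2 lower (*MYB115* and *MYB118*; 8.63%). By limma at an adjusted p under 0.05, all 4 were called, where 26.0% of all genes were. In *phe1 phe2 osd1* vs. *osd1*, the rank product called none higher (4.36% of genes) and 1 lower (*MYB119*; 4.17%), and limma called 0 of the 4 and 0% of all genes, with 554 of 20051 genes at an unadjusted p under 0.05. *MYB119* was picked for its difference in that comparison and its level of 0 in wt, so nothing is read from its calls or from its part in the counts and medians. *MYB115* was called higher there by the rank product with a filter of at least 1 RPKM, with a pseudocount of 0.1 and without *osd1* replicate 2. In *phe1 phe2 osd1* vs. wt, 1 was higher (*MYB119*; 8.51%) and 2 lower (*MYB115* and *MYB118*; 9.06%) by the rank product, and limma called 2, where 24.6% of all genes were. The median log2 change of the 4 was -0.45, -0.11 and -0.56 in the 3 comparisons, beside 0.01 over all genes in each. The call of *MYB118* was lost without *osd1* replicate 1 in the first comparison and without *phe1 phe2 osd1* replicate 2 in the last. Both triploid crosses share the wt libraries in these comparisons.

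**Figure D5:**
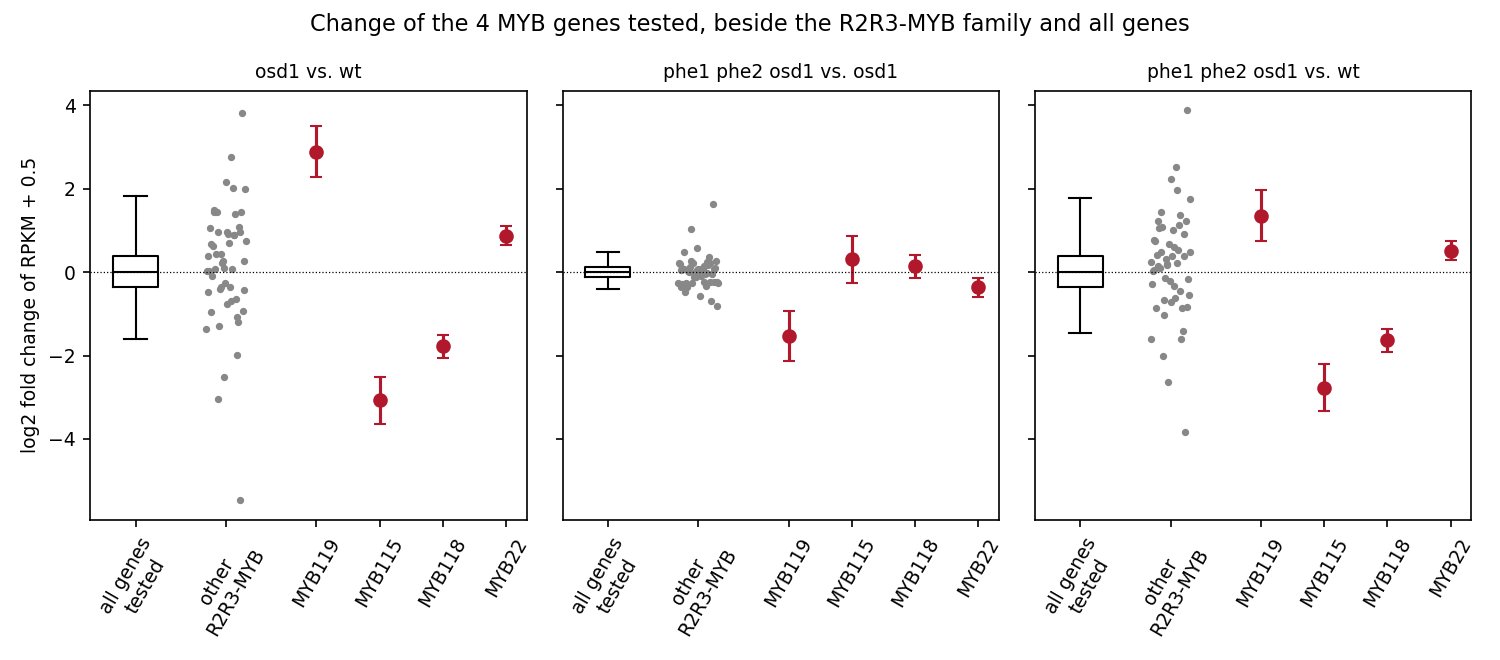
Log2 fold changes are drawn for all genes tested (box from the lower to the upper quartile with the median, whiskers at the 5th and 95th percentiles), the 53 other R2R3-MYB genes tested (grey points) and the 4 MYB genes (red, bars 1 SE). *MYB119* lies at 2.88 in *osd1* vs. wt and *MYB115* at -3.07. Of the 4 only *MYB119* leaves the range of most genes in *phe1 phe2 osd1* vs. *osd1*, a place fixed in advance by the way it was picked.

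The rest of the family also moved often in triploid seeds. Of the 119 other R2R3-MYB genes, 53 were tested, of which 11 were higher (20.8%) and 9 lower (16.98%) by the rank product in *osd1* vs. wt. Among all tested genes, 8.54% were higher and 8.63% lower. The higher count was 7 without wt replicate 1. The largest rises were those of *MYB89* (listed at 0 in wt, 12.6 and 3.25 RPKM in *osd1*, limma adjusted p = 0.00707), *MYB17* (9.85-fold, limma adjusted p = 0.00298) and *MYB26*, a factor of anther opening (7.50-fold, limma adjusted p = 0.00256). *MYB89* passed the filter on low values only through the triploid crosses, so nothing is read from its p-value. The largest fall was that of *MYB56*, a seed size regulator, from 139 and 129 RPKM to 1.01 and 5.55 (limma adjusted p = 0.00209), followed by *MYB101* (9.50-fold lower, limma adjusted p = 0.00251) and *MYB65* (8.12-fold lower, limma adjusted p = 0.00182), both GAMYB-like factors. By log2 change, *MYB115* would stand between *MYB56* and *MYB101*. *MYB119* would stand between *MYB89* and *MYB17*, although the way it was picked had set its direction. In *phe1 phe2 osd1* vs. *osd1*, the rank product called 3 higher (5.66%) and 6 lower (11.3%), beside 4.36% and 4.17% of all tested genes. Limma called 0 of them and 0% of all genes there. The higher count was 1 without *osd1* replicate 1, 6 without *osd1* replicate 2, 5 without *phe1 phe2 osd1* replicate 1 and 6 without *phe1 phe2 osd1* replicate 2.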

How the data were processed

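The authors sequenced poly(A) RNA, mapped reads with TopHat2 2.1.0 to TAIR10 and deposited RPKM per gene computed with GFOLD, which scales by mapped reads and gene length. All 6 columns were used, and 0 sample columns were left unused. Peaks came from Bowtie 1.2.2 and MACS2 2.1.1, called per replicate against input. In the deposited lists a peak is a start and an end position. A filter kept the 20051 of 27206 genes with a mean of 0.5 RPKM or more in any cross. The rank product of the study's methods was coded anew over the 4 pairs of replicates, with RPKM of 0 set to 0.0001 and 100 permutations (seed 1). Log2 fold changes, SE and Benjamini-Hochberg adjusted p-values came from limma 3.58.1 (eBayes with a trend, R 4.3.3) on log2(RPKM + 0.5), fitted on all 6 libraries. No exact permutation test was run, since its smallest two-sided p with 2 samples a group is 0.3333. Nothing in the files separates cultures from technical repeats beyond the study's statement of biological replicates.

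Peaks that overlapped by at least 1 bp (bedtools 2.31.1) were shared regions, assigned by their centre to the nearest of 37899 annotated starts. Coordinates are counted from 1. Chromosome lengths of TAIR10.1 were compared with the peak ends, and sequences were read from that build. Pairwise identities used Biopython 1.88 with BLOSUM62. Depth was estimated from the spacing of low RPKM values, of which 39.8 to 42.8% fell within 0.05 of a whole read where chance gives 10%, so read numbers are approximate.

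The members and lists were chosen with earlier results of these data known. The R2R3-MYB family was every gene with MYB and a number as symbol or synonym, and a domain was found in 115 of the 125 proteins. The genes named are the 6 MYB genes, *PHE1* and *PHE2*, the 3 largest rises and 3 largest falls among other R2R3-MYB genes that the rank product called without overlap in *osd1* vs. wt, the 3 genes most like each tested member, and up to 4 genes per list that passed limma. Neighbours of *MYB119*, *MYB98* and *MYB22*, *MUM4*, *EDE1*, *ZOU*, *EC1.2*, *EC1.4*, *AAD4*, *CKI1*, the *LURE1* genes, *LEC1*, *LEC2* and *MYB100* were added after their values were seen. The steps were tested on simulated data. Alternatives covered the test, the pseudocount, the filter, the scaling, a term for the replicate number, each library left out, and the overlap, width, replicate, window and gene set of the peaks. The histone and input samples were not analysed here.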

Additional observations from a re-analysis of the deposited data

How the results depend on the processing

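The direction of every log2 fold change of the 4 tested MYB genes against wt held under each alternative run (for *MYB119* the choice had set it), whereas the small differences of *MYB115* and *MYB118* between the triploid crosses changed sign with the library left out. Between those crosses, *MYB115* gained a call as higher in 3 alternatives. With a pseudocount of 1 the rank product lost *MYB119* as higher in *phe1 phe2 osd1* vs. wt. *MYB119* in *osd1* vs. wt was 5.02 with a pseudocount of 0.1 and 2.08 with 1, against 2.88.

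Among the other R2R3-MYB genes, *osd1* vs. wt gave 11 higher and 9 lower. Without the filter on low values, 17 were lower, and at an unadjusted limma p 20 were higher. In *phe1 phe2 osd1* vs. *osd1* (3 higher, 6 lower), no filter gave 13 higher and 15 lower, a pseudocount of 1 gave 2 lower, limma gave 0 and 0, and at an unadjusted p 0 were lower. In *phe1 phe2 osd1* vs. wt (8 higher, 9 lower), no filter gave 13 and 16, limma 14 higher, and an unadjusted p 18 higher. Leaving out 1 library gave 7 to 8 and 1 to 6 higher in the first 2 comparisons. With the replicate number as a block (the replicate block), limma gave 14 higher in *phe1 phe2 osd1* vs. wt, and 0 higher and 0 lower in *phe1 phe2 osd1* vs. *osd1*. The same-numbered libraries correlated by -0.01 to 0.17 in their deviations from the cross means, highest between *osd1* and *phe1 phe2 osd1*. Whether they share a batch was not tested.

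Shared PHE1 regions near other R2R3-MYB genes fell from 11 to 6 when at least 50% of both peaks had to overlap and to 4 with peaks wider than the median. Each ChIP replicate alone gave 1 to 2 of the 6 genes, *MYB22* being the second in replicate 2. The cause of these moves was not tested. For *MYB119*, levels below about 0.13 RPKM rest on fewer than 3 reads.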
